A study of Mus musculus with 10 samples.

Results

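The classical and alternative complement components examined here were 10 genes chosen by name for their place at the start of the complement cascade, namely C1qa, C1qb, C1qc, C1ra, C1s1, C2, C3, C4a, C4b and Cfb. They are 10 of 55453 gene symbols in the count table, of which 28011 had at least 1 count. All 10 passed the filter on low counts and were tested. RNA was sequenced from whole aortae of male C57BL/6 mice, 5 young mice aged 14.5 weeks and 5 old mice aged 92.5 weeks, with 1 library per mouse and no allele or agent in either group. The aortae had been perfused with saline and cleaned of the surrounding fat, and the comparison asked which transcripts of the vessel differ with age. Because whole tissue was measured, fewer cells of a type and less RNA per cell cannot be told apart.

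Complement is a cascade of plasma proteins that marks targets for uptake or lysis. In the classical pathway, C1q binds immune complexes or other ligands and activates the proteases C1r and C1s, which cleave C4 and C2 to form a convertase for C3. The alternative pathway builds its own C3 convertase from C3 fragments and factor B, so that C3 stands where both pathways meet. The liver makes most circulating complement, while macrophages are a main source of C1q and stromal cells such as fibroblasts make C1r, C1s and C3 locally.

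In old aortae, 8 of the 10 components were upregulated and none was downregulated at an adjusted p below 0.05 in edgeR's quasi-likelihood test. They were the 3 C1q chains, C1ra, C1s1, C2, C3 and C4b, and DESeq2 and limma-voom each also called 8. Over all 14614 genes tested, 11.5% were called, 6.48% as higher and 4.99% as lower in old aortae. The median log2 fold change (old over young) was 0.66 over the 10 members, against 0.00 over all genes tested. C4a and Cfb were not called, and all 10 log2 fold changes were positive. Only C1ra, C1s1, C2 and C3, 4 members, were called by edgeR without the filter on low counts, and likewise without old replicate 2 or without young replicate 2, 3, 4 or 5.

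For the same 8 members, every old mouse lay above every young mouse, whereas the groups did not overlap in 9.92% of all genes tested, with old mice higher in 5.37% and lower in 4.55%. Levels are given as normalised counts, which are read counts divided by a size factor per library. Total counts ranged from 19640401 to 22886153 per mouse. Old replicate 2 had 11.0% of its counts on mitochondrial genes, against at most 6.51% in the other mice. Smooth muscle markers such as Myh11 and Acta2 summed to between 736475 and 945758 in every library, the most of any cell type list read here.

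**Figure D1:**
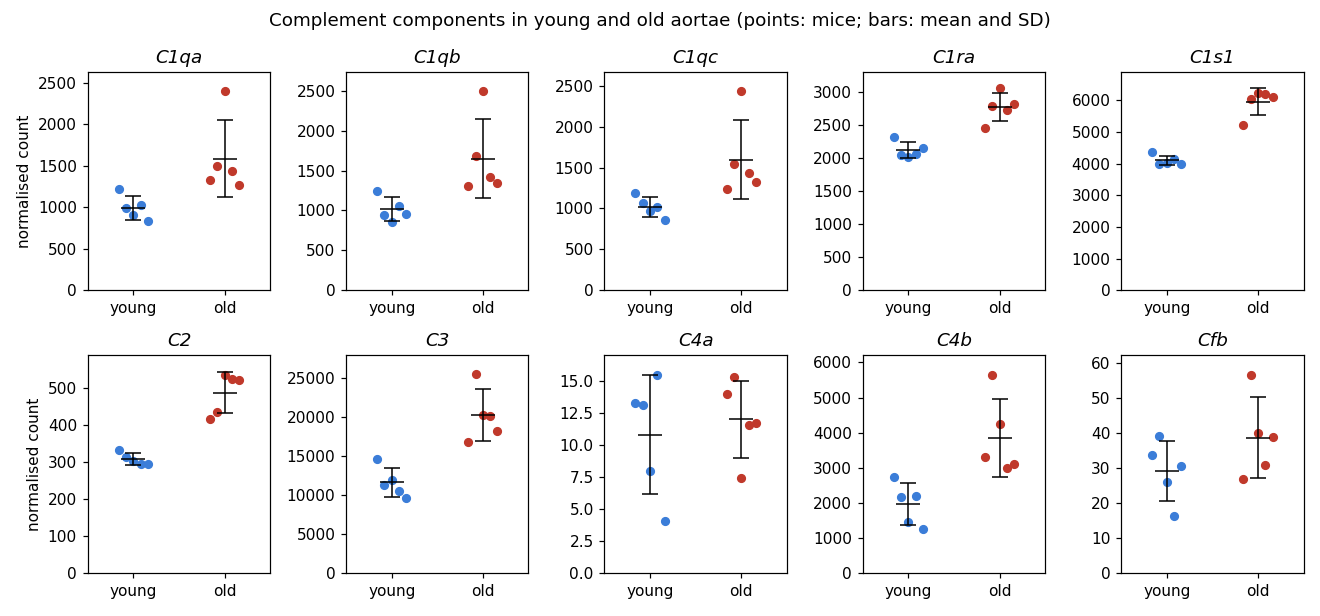
Normalised count of each of the 10 complement components (vertical axes, from 0) in 5 young and 5 old aortae. Points are mice and bars are mean and SD; old mice lie above all young mice in every panel except C4a and Cfb.

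The DNA just before the start is shown for C1qb and C1qc, which moved together, for C1s1, which had the smallest adjusted p of the members, and for C3, at which the pathways meet. The windows were taken from RefSeq (GRCm38.p6), which gave one for 5 of the 10 members, and are trimmed where they run into the gene as GENCODE annotates it. All read 5′ to 3′ on the gene's strand, which is the minus strand for these 4 genes. C1qb lies at chr4:136886201-136886450, C1qc at chr4:136893066-136893164, C1s1 at chr6:124542360-124542609 and C3 at chr17:57228137-57228386. Capitals mark matches to GAGGAA, the core that ETS factors such as PU.1 of macrophages bind, or to TTGCNNAA, a core for C/EBP factors, on either strand.
C1qb: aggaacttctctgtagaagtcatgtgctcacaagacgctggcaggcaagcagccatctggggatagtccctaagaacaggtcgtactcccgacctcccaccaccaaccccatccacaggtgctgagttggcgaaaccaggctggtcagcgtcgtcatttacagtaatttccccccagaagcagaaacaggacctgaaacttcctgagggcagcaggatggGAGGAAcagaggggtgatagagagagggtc
C1qc: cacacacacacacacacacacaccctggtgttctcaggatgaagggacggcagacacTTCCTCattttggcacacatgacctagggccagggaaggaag
C1s1: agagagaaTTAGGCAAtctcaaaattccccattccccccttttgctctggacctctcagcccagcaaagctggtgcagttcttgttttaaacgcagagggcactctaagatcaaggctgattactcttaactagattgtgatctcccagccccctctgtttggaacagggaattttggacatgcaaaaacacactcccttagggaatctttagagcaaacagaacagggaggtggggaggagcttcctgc
C3: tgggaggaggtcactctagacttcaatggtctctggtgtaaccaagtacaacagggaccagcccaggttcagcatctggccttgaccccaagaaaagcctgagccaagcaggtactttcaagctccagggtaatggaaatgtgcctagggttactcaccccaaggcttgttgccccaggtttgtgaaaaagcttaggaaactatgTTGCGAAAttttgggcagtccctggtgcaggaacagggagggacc

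C1qb had GAGGAA at 30 to 25 bases before its start, and C1qc had it on the opposite strand, read as TTCCTC, at 193 to 188 bases. Positions are counted from the RefSeq start, which for C1qc lies beyond the 3′ end of the trimmed sequence shown. C3 had TTGCGAAA at 45 to 38 bases before its start. C1s1 had TTAGGCAA, the reverse complement of the same core, at 242 to 235 bases before the farther of its 2 starts. The window of its other start held neither core, and neither did that of C1ra, the member with a window that is not shown. Among 27025 RefSeq promoters of the same 250 bases, 23.1% held GAGGAA and 9.55% held TTGCNNAA. Another pattern, the gamma-activated site TTCNNNGAA that STAT factors bind, is found in 7.18% of promoters and had no match in the windows of the 5 members. These are matches of letters only.

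The genes for the 3 chains of C1q, the recognition molecule of the classical pathway, lie side by side on the minus strand, C1qb at chr4:136880129-136886187, C1qc at chr4:136889804-136893065 and C1qa at chr4:136895917-136898803 (GRCm38). C1qa was at 1218, 987, 909, 1022 and 829.9 normalised counts in young replicates 1 to 5 and at 1325, 1497, 2403, 1432 and 1268 in old replicates 1 to 5. Old replicate 3 stood well above the other old mice, and young replicate 1 came closest to the old group. C1qb ran from 860.4 to 1249 in young and from 1306 to 2502 in old aortae, and C1qc from 861 to 1195 and from 1243 to 2443. For each chain, the highest old mouse was replicate 3 and the lowest old mouse was still above the highest young one.

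The log2 fold change of C1qa was 0.68, an upregulation in old aortae (SE 0.18, edgeR adjusted p = 0.0309). C1qb rose by 0.71 (SE 0.18, edgeR adjusted p = 0.0293) and C1qc by 0.65 (SE 0.18, edgeR adjusted p = 0.0370) on the same scale. The 3 calls were held by small margins. Without old replicate 2 or without young replicate 2, 3, 4 or 5, the edgeR adjusted p lay between 0.0517 and 0.0717 for C1qa, between 0.0578 and 0.0740 for C1qb and between 0.0634 and 0.0837 for C1qc. Without old replicate 3, the log2 fold changes were 0.48, 0.51 and 0.44 in the order C1qa, C1qb, C1qc, and each was called (edgeR, adjusted p = 0.0118, 0.0147 and 0.0118).

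C1q protein holds its A, B and C chains in equal number. The counts of the 3 genes kept close to equal shares in every mouse, but these shares are not corrected for exonic length. Per kilobase of exon, mean C1qc was 530 in young and 828 in old aortae. On that scale C1qa was at 955 and 1524 and C1qb at 933 and 1518, so the transcripts were not in equal number. C1qa made up 32.7% ± 0.772 (SD, n = 5) of the summed C1q counts in young mice and 32.8% ± 1.00 (SD, n = 5) in old mice. The shares were 33.5% and 34.1% for C1qb and 33.8% and 33.0% for C1qc. None of the 3 shares differed beyond the spread between mice (exact two-sided permutation test, p = 0.817, 0.548 and 0.357, each 0.817 after Benjamini-Hochberg adjustment over the 3 chains).

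The chains also varied together within the age groups. After removal of the group means, C1qa and C1qc correlated at Pearson r = 0.98 and Spearman rho = 0.93 over the 10 mice (exact permutation within groups, p = 0.000417 and 0.00139, adjusted over 12 pairs 0.00500 and 0.0167). Without young replicate 1 and old replicate 3, the mice farthest from the median, r was 0.89. C1qa with C1qb gave r = 0.95 and rho = 0.83 (exact permutation, p = 0.00201 and 0.00618, adjusted 0.0121 and 0.0371), and C1qb with C1qc gave r = 0.93 and rho = 0.81 (exact permutation, p = 0.00333 and 0.0108, adjusted 0.0133 and 0.0431). Without the same mice, these r values were 0.66 and 0.60. Without young replicate 1 alone, the adjusted exact permutation p of C1qa with C1qb was 0.0604 and that of C1qb with C1qc 0.0653, and without old replicate 3 alone the latter was 0.0690. The chains are in every case read from the same libraries, so they share depth and RNA quality.

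Macrophage markers were also higher in old aortae as a sum, though not each of them. All 12 markers examined had a positive log2 fold change, with a median of 0.58. EdgeR called 4 of them higher, against 6.48% of all genes tested. These were Adgre1, which encodes the F4/80 antigen, Cd68, the Fc receptor gene Fcgr1, and Aif1, and edgeR called 2 without young replicate 4 or 5. Mertk, Lyve1 and Timd4 had log2 fold changes of only 0.03, 0.07 and 0.16 (edgeR adjusted p = 0.930, 0.826 and 0.821). The summed level of the 12 markers ranged from 7469 to 9700.5 in young and from 9388 to 13704 in old aortae (exact two-sided permutation test, p = 0.0159), with old replicate 3 again highest.

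Per unit of these markers, the summed C1q level was higher in old aortae by 0.31 on the log2 scale, or 1.24-fold (exact two-sided permutation test, p = 0.0476). The mean log2 ratio was -1.51 ± 0.220 (SD, n = 5) in young and -1.20 ± 0.196 (SD, n = 5) in old mice, and the groups overlapped. The value depended on how the markers were weighted. Mertk, an uptake receptor with 3506 normalised counts in young and 3569 in old aortae, made up a large part of the sum. Without it the difference was 0.16, or 1.12-fold (exact permutation, p = 0.0238, or 0.0556 without old replicate 2), and with each marker given equal weight it was 0.038, or 1.03-fold (exact permutation, p = 0.571). Both of these weightings were chosen after the values were seen. Without young replicate 2, 3, 4 or 5 or old replicate 2, 3, 4 or 5, the exact permutation p of the ratio to the full sum lay between 0.0635 and 0.0952.

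The mean of the C1q chains correlated with the mean of the macrophage markers at r = 0.93 and rho = 0.67 within groups (exact permutation, p = 0.00736 and 0.0463, adjusted 0.0221 and 0.0925). Without young replicate 1 and old replicate 3, r was 0.42, so the size of r rested in part on that pair of mice. Without young replicate 1 alone, r was 0.92 (adjusted exact permutation p = 0.110), without young replicate 5 it was 0.93 (adjusted exact permutation p = 0.0533) and without old replicate 3 it was 0.77 (adjusted exact permutation p = 0.0708). Among 14604 other genes tested, the 3 most like the C1q chains over the 10 mice, with group means removed, were F13a1 (r = 0.97), Gimap3 (r = 0.97) and Lfng (r = 0.95). F13a1, the coagulation factor XIII A chain that tissue macrophages express, had a log2 fold change of 0.63 (SE 0.15, edgeR adjusted p = 0.0197). Gimap3, a GTPase gene of lymphocytes, had 1.53 (SE 0.38, edgeR adjusted p = 0.0197), and Lfng, a Notch-modifying glycosyltransferase, had -0.02 (SE 0.18, edgeR adjusted p = 0.957). Of the markers, Folr2 came closest with r = 0.92 and place 8, Csf1r had r = 0.90 and Mrc1 r = 0.90, while Mertk had r = -0.47. Of those called higher, Cd68 had r = 0.88, Adgre1 0.74, Fcgr1 0.67 and Aif1 0.30 (place 3722). The other markers lay between 0.51 for Cd163 and 0.78 for Timd4. These r values describe 10 mice whose genes were read from the same libraries. The 3 highest were picked from 14604 genes, so their size alone shows no link to C1q.

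**Figure D2:**
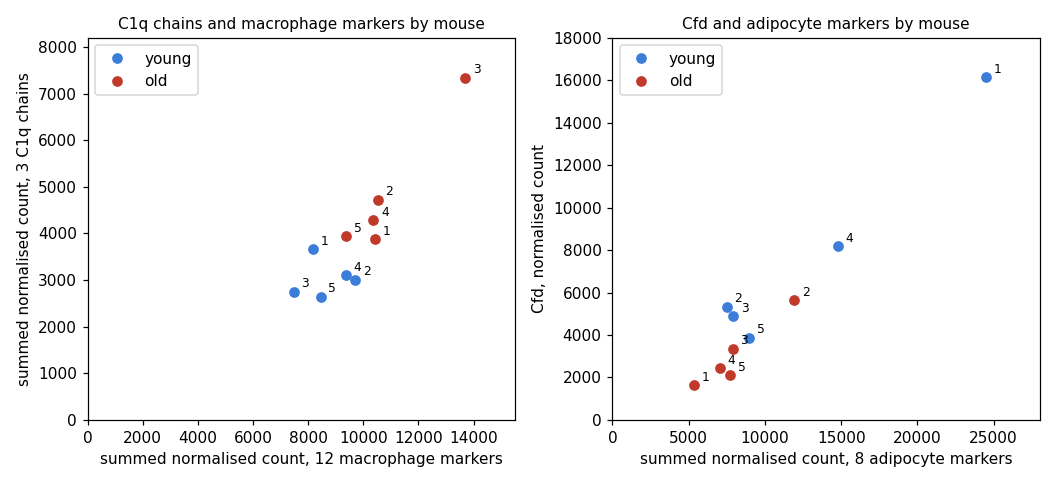
Left, summed normalised count of the 3 C1q chains (vertical) against that of 12 macrophage markers (horizontal) per mouse, and right, Cfd (vertical) against the sum of 8 adipocyte markers (horizontal). Points are mice, numbered by replicate; old replicate 3 stands apart on the left at 7347 and 13704, and young replicate 1 on the right at 16144 and 24481.

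C1r and C1s are the proteases bound to C1q. C1ra lies at chr6:124512405-124523443 on the plus strand and C1s1 at chr6:124530345-124542359 on the minus strand. C1s1 was at 4358, 3988, 4028, 4132 and 3989 normalised counts in young replicates 1 to 5 and at 5207, 6045, 6227, 6212 and 6104 in old replicates 1 to 5. The young mice lay within a narrow band, and in the old group only replicate 1 stood below the others. C1ra was at 2321, 2048, 2015, 2061 and 2149.6 in young and at 2456, 2787, 3061, 2719 and 2812 in old aortae, where replicate 1 was again the lowest old mouse.

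C1s1 rose from 4099 ± 156 to 5959 ± 427 (SD, n = 5 each), a log2 fold change of 0.55 (SE 0.06, edgeR adjusted p = 0.000154), and by p it stood at place 41 among the 947 genes called higher. C1ra rose from 2119 ± 123 to 2767 ± 217 (SD, n = 5 each), a log2 fold change of 0.39 (SE 0.06, edgeR adjusted p = 0.00192). Although C1ra had the smallest fold change of the 8 called members, its SE was smaller than that of the C1q chains. The ratio of C1s1 to C1ra was itself higher in old aortae, with a mean log2 ratio of 0.95 ± 0.0511 in young and 1.11 ± 0.0608 in old mice (SD, n = 5 each). This difference of 0.15, or 1.11-fold, held in all mice of both groups (exact two-sided permutation test, p = 0.0079, the smallest that 252 assignments can give) and was examined after the values were seen.

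C1ra and C1s1 varied together within groups at r = 0.83 and rho = 0.79 (exact permutation, p = 0.0158 and 0.0145, adjusted 0.0380 and 0.0435), and r was 0.71 without old replicates 1 and 3. Without young replicate 1 or 2 or old replicate 1, 2, 3 or 5, the adjusted exact permutation p of this r lay between 0.0508 and 0.178. The mean of the C1q chains against that of C1ra and C1s1 differed between the ages by 0.18 on the log2 scale, with the groups overlapping (exact two-sided permutation test, p = 0.317), also examined after the values were seen. Of the 50-base windows of these transcripts, 50.8% in C1ra and 35.1% in C1s1 also occur in other genes, mainly the paralogs C1rb and C1s2 and the antisense gene Gm16567. C1rb held 1 count over all young and 7 over all old libraries, and C1s2 held 24 and 20. How reads with several matches were counted is not given in the sources used here, so the levels of C1ra and C1s1 carry that uncertainty.

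C4 and C2 are cleaved by C1s and together form the classical C3 convertase. Their genes lie in the major histocompatibility complex, with C4b at chr17:34728380-34743882, C4a at chr17:34809092-34823464, Cfb at chr17:34856374-34862518 and C2 at chr17:34862604-34898265, all on the minus strand. C2 was at 333, 314, 303, 295 and 296 normalised counts in young replicates 1 to 5 and at 417, 436, 535, 523 and 522 in old replicates 1 to 5. The lowest old mouse was well above the highest young mouse, and old replicates 1 and 2 sat below the other 3. The log2 fold change was 0.67 (SE 0.09, edgeR adjusted p = 0.000344), at place 77 among the genes called higher.

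C4b was at 2745, 2167, 1459.7, 2201 and 1272 normalised counts in young replicates 1 to 5 and at 3322, 5637, 4257, 2999 and 3099 in old replicates 1 to 5. It had the highest fold change of the members, 0.98 on the log2 scale, together with the widest spread among those called (SE 0.25, edgeR adjusted p = 0.0309). Young replicate 1, the highest young mouse, came close to old replicate 4, the lowest old one. The edgeR adjusted p lay between 0.0524 and 0.0761 without old replicate 2 or 3 or without young replicate 2, 3, 4 or 5. Without old replicate 2 alone, the highest mouse, the log2 fold change was 0.80 (edgeR, adjusted p = 0.0524).

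C4a is a paralog that GENCODE M21 lists as a processed transcript, and it was hardly detected. It held 54 counts over the 5 young and 60 over the 5 old libraries, between 4.10 and 15.5 normalised counts in young and between 7.46 and 15.3 in old mice. The groups overlapped, and the log2 fold change was 0.15 (SE 0.35, edgeR adjusted p = 0.832), and without young replicate 5 the log2 fold change was -0.059. C4b thus made up 99.5% ± 0.140 of all C4 counts in young mice and 99.7% ± 0.101 in old mice (SD, n = 5 each). The difference of 0.204 percentage points had an exact two-sided permutation p of 0.0397, and between 0.0556 and 0.0794 without young replicate 1, 2, 3 or 4 or old replicate 2, 3 or 5. Of the 50-base windows, 34.6% of C4b and 30.6% of C4a are shared between them, so that a part of the reads cannot be assigned to either. C4a and C4b correlated within groups at r = 0.65 and rho = 0.79 (exact permutation, p = 0.0724 and 0.0200, adjusted 0.124 and 0.0480), and r was 0.78 without young replicate 5 and old replicate 3. Without old replicate 3 alone, the adjusted exact permutation p of r was 0.0271.

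The same stretch of chromosome 17 held other expressed genes, and these were not called in either direction. Within 50000 bases on either side of the members, 8 non-members on chromosome 17 were tested, with log2 fold changes from -0.22 for Tnxb to 0.33 for Zbtb12 and a median of 0.11. Zbtb12 had the smallest adjusted p of them (SE 0.13, edgeR adjusted p = 0.136). Around the C1q genes the only tested neighbour was Ephb2 at -0.21, and around C1ra and C1s1 there were 3, with Gm16567 at -0.82 (SE 0.53), Clstn3 at -0.48 (SE 0.38) and C1rl at 0.09 (SE 0.12). Over the 3 intervals, edgeR called 0 of 12 neighbours, against 11.5% of all genes tested. Of these neighbours, 2 had an unadjusted p below 0.05, and DESeq2 and limma-voom called 0. So few genes cannot tell the neighbours from the rest of the table.

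**Figure D3:**
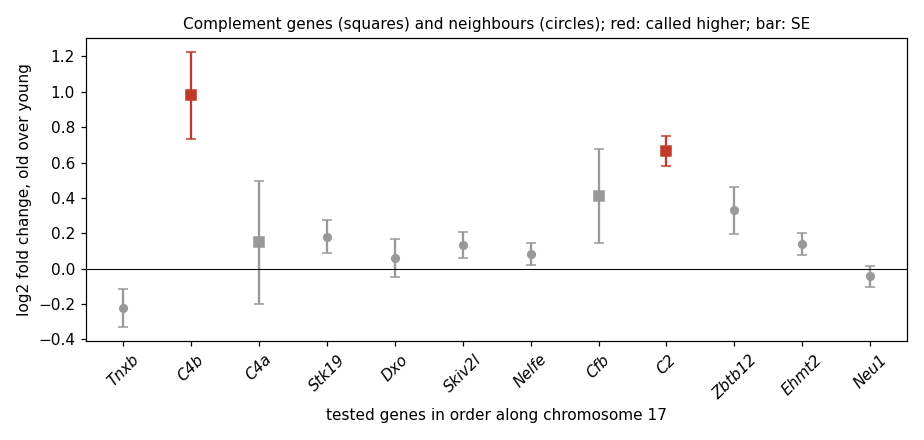
Log2 fold change (old over young, vertical) of the tested genes in their order along the chromosome 17 interval (horizontal), with SE bars. Squares are complement components and circles other genes, red marks genes called higher; C4b at 0.98 and C2 at 0.67 stand above their neighbours, which lie between -0.22 and 0.33.

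C3 is the central component, whose cleavage product is deposited on targets. It lies apart from the other members at chr17:57203970-57228136 on the minus strand. C3 was at 14631, 11329.6, 11970.4, 10508 and 9649 normalised counts in young replicates 1 to 5 and at 16786, 25519.5, 20266, 20164 and 18168 in old replicates 1 to 5. The old group had a clear gap above the young one, with young replicate 1 and old replicate 1 nearest to each other and old replicate 2 highest. The log2 fold change was 0.80 (SE 0.13, edgeR adjusted p = 0.00174), at place 172 among the genes called higher.

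Cfb encodes factor B, the protease of the alternative convertase, and its level was low. It held 145 counts over the young and 194 over the old libraries. Cfb was at 33.7, 39.2, 25.9, 16.4 and 30.7 normalised counts in young replicates 1 to 5 and at 27.0, 56.7, 40.1, 30.9 and 38.9 in old replicates 1 to 5. The groups overlapped, and the log2 fold change of 0.41 (SE 0.27, edgeR adjusted p = 0.356) was within the spread between mice.

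The counts of Cfb and C2 carry a limit from the annotation. The gene Gm20547 spans both on the same strand and covers 2246 of 2825 exonic bases of Cfb, or 79.5%, and 1656 of 3872 of C2, or 42.8%. Gm20547 itself was listed at 0 in all 10 libraries. Whether reads in the shared exons were counted for Cfb and C2 or left out is not given in the sources used here. Their levels may thus be too low, while the comparison between ages uses the same rule in both groups.

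The members spanned a wide range of levels. Per kilobase of exon, C3 was highest with a mean normalised count of 2259 in young and 3924 in old aortae, followed by C1s1 with 1310.0 and 1904. The range of C1s1 lay above that of C1qa in young aortae and overlapped it in old ones. C1qa with 955 and 1524 and C1qb with 933 and 1518 could not be ordered, since their ranges over mice overlapped in both groups. C1ra followed with 711 and 928 and C1qc with 530.1 and 828, and their ranges overlapped in old aortae only. C4b had 346 and 678, with a range that overlapped that of C1qc at both ages. C2 had 79.6 and 126, Cfb 10.3 and 13.7, and C4a 1.74 and 1.93. Per kilobase not shared with Gm20547, C2 was at 139 and 219.6 and Cfb at 50.5 and 66.8, which left both in the same place. C1ra, C1s1 and C4b share 50.8%, 35.1% and 34.6% of their 50-base windows with other genes. No correction was made for this, so their places in the order are uncertain. C1qc was lower than the other chains on this scale because its exonic length is given as 1931 bases, against 1040 for C1qa and 1088 for C1qb, with counts that were nearly equal.

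**Figure D4:**
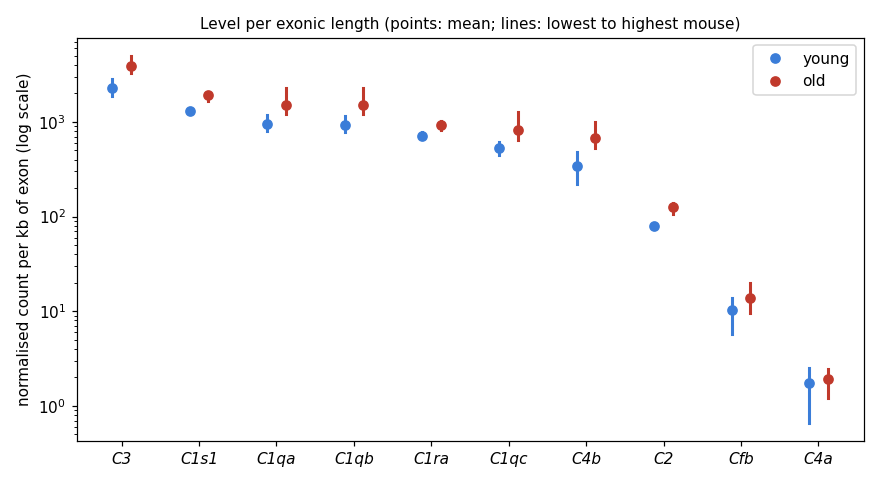
Normalised count per kilobase of exon (vertical, log scale) of the 10 components in young and old aortae, in the order of the young mean. Points are means of 5 mice and lines run from the lowest to the highest mouse; C3 is highest at 2259 and 3924 and C4a lowest at 1.74 and 1.93.

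Pairs of members from different steps of the cascade were read in the same way. C3 with C4b gave r = 0.74 and rho = 0.54 (exact permutation within groups, p = 0.0251 and 0.139, adjusted 0.0503 and 0.208), and r was 0.28 without young replicate 1 and old replicate 2. Without young replicate 3 or 4 or old replicate 4, the adjusted exact permutation p of this r was 0.0410, 0.0358 and 0.0424. C3 with Cfb gave r = 0.57 and rho = 0.44 (exact permutation, p = 0.114 and 0.234, adjusted 0.171 and 0.312; r = 0.25 without the same mice). C2 with Cfb, which adjoin each other, gave r = 0.19 and rho = 0.19 (exact permutation, p = 0.630 and 0.638, adjusted 0.630 and 0.638; r = 0.61 without old replicates 1 and 2). C1ra with C3 gave r = 0.49 and rho = 0.22 (exact permutation, p = 0.181 and 0.556, adjusted 0.242 and 0.606; r = 0.43 without old replicates 1 and 3).

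The mean of the C1q chains with C3 gave r = 0.46 and rho = 0.65 (exact permutation, p = 0.211 and 0.0605, adjusted 0.254 and 0.104), and r was 0.74 without young replicate 1 and old replicate 3. Without old replicate 3 alone, r was 0.84 (adjusted exact permutation p = 0.0361). C3 with the mean of 8 fibroblast markers gave r = -0.22 and rho = -0.27 (exact permutation, p = 0.613 and 0.485, adjusted 0.630 and 0.583; r = 0.23 without young replicate 1 and old replicate 2). The 3 genes most like C3 over the 10 mice were Trim6 (r = 0.96), Gpn3 (r = 0.95) and 4833445I07Rik (r = 0.95). They were picked as the highest r among 14604 genes, so their size alone shows no link to C3. Trim6 had a log2 fold change of -0.64 (SE 0.25, edgeR adjusted p = 0.126), Gpn3 0.13 (SE 0.10, edgeR adjusted p = 0.457) and 4833445I07Rik 0.00 (SE 0.22, edgeR adjusted p = 0.998).

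Outside the members, 41 other complement genes were examined, of which 26 passed the filter. EdgeR called 5 of them higher and 1 lower in old aortae, against 6.48% higher and 4.99% lower among all 14614 genes tested. The median log2 fold change of the 26 genes was 0.09. The counts were 8 higher without young replicate 1 and 3 higher without young replicate 4. Leaving out single mice gave 0 to 2 genes called lower, with 0 without old replicate 5 or young replicate 4 and 2 without old replicate 1, 2 or 3 or young replicate 1 or 2.

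Among the other proteases and factors, edgeR called 1 of 4 tested, higher in old aortae, and DESeq2 and limma-voom each called 1 higher and 1 lower. The gene edgeR called was Cfp, encoding properdin, which stabilises the alternative convertase. Cfp was at 349, 286, 354, 323 and 261 normalised counts in young replicates 1 to 5 and at 466, 547, 526, 448 and 404 in old replicates 1 to 5, with no overlap. Its log2 fold change was 0.61 (SE 0.11, edgeR adjusted p = 0.00282).

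Cfd encodes factor D, which cleaves factor B and is made largely by adipocytes. It was at 16144, 5320.2, 4871, 8176 and 3859.7 normalised counts in young and at 1631, 5628, 3361, 2432 and 2096 in old aortae. Young replicate 1 was far above the rest, and the groups overlapped. The log2 fold change was -1.33 (SE 0.47, edgeR adjusted p = 0.105), and without young replicate 1 it was -0.87 (edgeR adjusted p = 0.181). DESeq2 (adjusted p = 0.0426) and limma-voom (adjusted p = 0.0487) called Cfd lower. The 8 adipocyte markers summed to between 7492 and 24481 in young and between 5339 and 11938 in old aortae, highest in young replicates 1 and 4, the same mice with the highest Cfd. The part of fat tissue in the level of Cfd was not tested.

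Of the 8 regulators tested, 1 was called higher and 1 lower. Serping1, encoding the C1 inhibitor that blocks C1r and C1s, went from 20154 ± 1557 to 24629 ± 2143 normalised counts (SD, n = 5 each), a log2 fold change of 0.30 (SE 0.08, edgeR adjusted p = 0.0244). Without old replicate 3, 4 or 5 or young replicate 3 or 4, its edgeR adjusted p lay between 0.0514 and 0.0656, and with a correction for GC content and exonic length it was 0.0510. Clu, encoding clusterin, an inhibitor of the terminal complex, fell by 0.26 on the log2 scale (SE 0.06, edgeR adjusted p = 0.0201), from 21436 ± 1402 to 17808 ± 829 (SD, n = 5 each). Without old replicate 5 or young replicate 4, its edgeR adjusted p was 0.0509 and 0.0620. In both genes the groups did not overlap. Cd59a, whose groups did not overlap either, had a log2 fold change of -0.21 that was not called (SE 0.06, edgeR adjusted p = 0.0554). DESeq2 called 1 regulator higher and 2 lower, and limma-voom 1 and 1.

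Of the 8 receptors tested, 3 were called higher, and the median log2 fold change of the list was 0.87. Vsig4, the receptor of tissue macrophages for C3b, was at 27.6, 22.1, 15.0, 33.8 and 9.22 normalised counts in young replicates 1 to 5 and at 57.0, 99.2, 74.6, 44.3 and 59.3 in old replicates 1 to 5. Its log2 fold change of 1.63 was the highest among the complement genes tested (SE 0.31, edgeR adjusted p = 0.00526). C5ar2, a C5a receptor, rose by 0.88 (SE 0.20, edgeR adjusted p = 0.0131), and Itgb2, the beta chain of the leukocyte complement receptors, by 0.87 (SE 0.21, edgeR adjusted p = 0.0216). Without young replicate 4 or 5 the edgeR adjusted p of Itgb2 was 0.0582 and 0.0536, and without the filter on low counts it was 0.0523. The anaphylatoxin receptors C3ar1 and C5ar1 had log2 fold changes of 0.90 and 0.65 that were not called (edgeR, adjusted p = 0.0612 and 0.0561). Cd93, on the same list, had a log2 fold change of -0.68 and was not called either (edgeR adjusted p = 0.0634). DESeq2 called 6 receptors higher and 1 lower, and limma-voom 3 and 1.

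Among lectin pathway recognition molecules 3 were tested, with a median of 0.22, and among terminal components 3 were tested, with a median of -0.20. EdgeR called 0 genes of either list. Of the lectin list 1 gene had an unadjusted p below 0.05 and was called by DESeq2 and 0 were called by limma-voom, while for the terminal list all 3 counts were 0. Transcripts for the lytic end of the cascade, C8a, C8b, C9 and Hc, did not pass the filter.

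**Figure D5:**
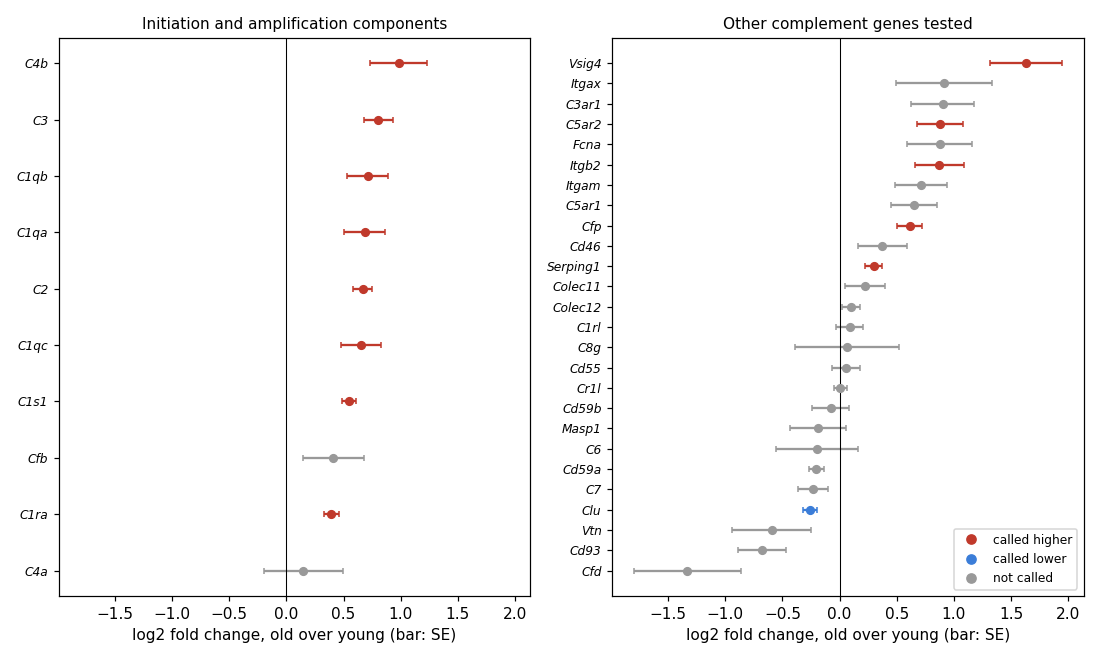
Log2 fold change (old over young, horizontal) with SE bars of the 10 components on the left and of the 26 other complement genes tested on the right. Red marks genes called higher and blue genes called lower; 8 components are red on the left, and on the right 5 genes are red and Clu, at -0.26, is blue.

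Markers of other cells were read in the same libraries. Fibroblast markers summed to between 155496 and 180820 in young and between 138479 and 185617 in old aortae (exact two-sided permutation test, p = 0.984), and edgeR called Lum higher and Mfap5 and Pi16 lower among the 8. Most of this sum came from Gsn, with means of 74268 in young and 71747 in old aortae, and Dcn, with 43273 and 52014. The sum thus says little about the other markers of the list. The 7 smooth muscle markers did not differ in sum beyond the spread (exact permutation, p = 0.286). The 7 endothelial markers summed to between 20230.1 and 34895 in young and between 10375 and 23792 in old aortae (exact permutation, p = 0.0317). Of these markers, edgeR called 1 lower, and between 0 and 5 when single mice were left out, with 5 without old replicate 2. DESeq2 and limma-voom each called 4 lower. All 7 had a negative log2 fold change, with a median of -0.60. The 2 T cell markers tested were both called higher, and the sum of 5 such markers ran from 8.20 to 35.8 in young and from 38.0 to 145 in old aortae (exact permutation, p = 0.0079).

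The liver makes most plasma complement, so hepatocyte markers were read as well. The 5 markers, Alb among them, summed to between 129 and 895 in young and between 139 and 1174 in old aortae (exact two-sided permutation test, p = 0.714). EdgeR, DESeq2 and limma-voom called 0 of these 5, and 0 had an unadjusted p below 0.05. Markers of B and plasma cells summed to between 14.1 and 92.0 in young and between 43.0 and 384 in old aortae (exact permutation, p = 0.0873). Among them Jchain, which did not pass the filter, held 14 counts over the young and 194 over the old libraries. Neutrophil markers summed to between 4.03 and 15.4 in young and between 8.68 and 109 in old aortae (exact permutation, p = 0.0556). Mesothelial markers stayed between 5.11 and 29.9 in all mice, and the 4 hemoglobin genes did not differ in sum (exact permutation, p = 0.952). Apart from the ratio to macrophage markers given above, the part of each cell type in the levels of the complement genes was not tested.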

How the data were processed

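Poly(A) RNA of 10 aortae was sequenced from stranded libraries, 1 per mouse. The authors trimmed reads with fastp 0.20.0, aligned them to GRCm38 with STAR 2.7.0f and counted them per gene with featureCounts of Subread 1.6.4, per the submitters' processing notes. The deposited table holds raw read counts per gene symbol. The strand setting and the treatment of reads on several or overlapping genes are not given in the sources used here.

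Symbols were matched to GENCODE M21 of GRCm38 for position and exonic length, and 54471 of 55453 matched 1 gene, all 10 members included. The paper names a later GENCODE release for its counts, so lengths, overlaps and gene types given here may differ from those the counts rest on. Genes were filtered with filterByExpr and tested on the whole table with edgeR 4.0.16 (TMM scaling, robust quasi-likelihood F test, no covariates) under R 4.3.3, with Benjamini-Hochberg adjustment over 14614 genes, and called at an adjusted p below 0.05. Levels are counts divided by DESeq2 1.42.0 size factors. Single values were compared by exact two-sided permutation over 252 assignments of mice. Correlations used log2 levels with a pseudocount of 0.5 and 14400 permutations within groups. The edgeR, DESeq2 and limma-voom tests and the permutation tests of differences and of Pearson r were tried on simulated data. The permutation test of Spearman rho was not. Between libraries of the same group, the squared differences were 8.60 to 64.8 times the counting variance (chi-square per degree of freedom), and none were merged. The highest values, 39.8 to 64.8, were those of pairs with old replicate 2.

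The members and lists were chosen with earlier results of these data known. The text names all members, the other complement genes and neighbours that were called, and the 3 genes most like C1q or C3. Cfd, C3ar1, C5ar1, Cd93, Cd59a, Zbtb12, Tnxb, C1rl, Clstn3, Gm16567, Ephb2, C1rb, C1s2 and the terminal genes were named after their values were seen. Marker genes stand beside their list. One gene of the planned list of regulators is not reported here and was left out of the list counts. Alternatives were DESeq2, limma-voom (limma 3.58.1), other scalings and filters, a GC content and length correction, the replicate number as a block, leaving out each mouse in turn and calls at 0.01. Added after the data were seen were the ratios so named, the equal weighting of macrophage markers and the sum without Mertk.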

Additional observations from a re-analysis of the deposited data

Results flagged for a closer look

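Of 24 groups of 5 mice examined for a mouse apart from the rest, 5 held one whose gap to its nearest neighbour exceeded 0.710 of the range of its group, where chance gives about 1 in 20. In old aortae, replicate 3 had 2403 normalised counts of C1qa, above 1497 in the next mouse, and 2443 of C1qc, above 1544. Its summed C1q level was 7347, above 4724, and its summed macrophage marker level was 13704, above 10519.9. These 4 values come from 1 mouse and share genes, so that they are not independent of each other. C1s1 was lowest in old replicate 1, with 5207 normalised counts against 6045 in the next old mouse.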

How the results depend on the processing

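C1ra, C1s1, C2 and C3 were called higher in edgeR and under all 19 alternatives, with log2 fold changes of 0.34 to 0.43, 0.51 to 0.59, 0.61 to 0.72 and 0.70 to 0.90. Without the filter on low counts, the log2 fold changes of C1qa, C1qb, C1qc and C4b were 0.68, 0.71, 0.65 and 0.98, but edgeR called none of them (adjusted p = 0.0967, 0.0921, 0.112 and 0.0806) and 4 members in all. The members called higher were 4 at an adjusted p below 0.01 and 4 to 8 when single mice were left out, in which case the log2 fold changes ran from 0.48 to 0.77 for C1qa, 0.51 to 0.80 for C1qb, 0.44 to 0.73 for C1qc, 0.80 to 1.13 for C4b and -0.059 to 0.31 for C4a. Of other complement genes, DESeq2 called 9 higher and 4 lower. The genes called lower were 3 with the GC content and length correction, 3 with limma-voom and 2 with DESeq2 size factors, while 2 higher and 0 lower passed an adjusted p below 0.01. Leaving out single mice gave 3 to 8 higher and 0 to 2 lower. The macrophage markers called higher ran from 0 at the 0.01 threshold to 7 in DESeq2. Leaving out single mice moved the old minus young difference of the C1qa share between -0.220 and 0.407 points, that of the C4b share between 0.162 and 0.256, and the log2 C1q per macrophage marker difference between 0.24 and 0.40, with 0.038 at equal marker weights. The correlation of C2 with Cfb ran from -0.12 without old replicate 1 to 0.57, and that of C3 with fibroblast markers from -0.51 to 0.32 without old replicate 2. Leaving out mice also leaves fewer samples to the test. Otherwise the cause was not tested.

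Replicate numbers are shared between the age groups but named different mice. Same-numbered mice correlated in their deviations from the group means at -0.30, -0.07, 0.10, -0.05 and 0.13, and in pairs 3 and 5 alone each mouse matched its own number best. With the replicate block, edgeR called 1261 of all genes against 1676, 5 members and 0 other complement genes lower, and the log2 fold changes of C1qa, C1qb and C1qc were 0.65, 0.68 and 0.61 (adjusted p = 0.0569, 0.109 and 0.0633). Serping1 and Clu were not called with the block either (edgeR adjusted p = 0.0918 and 0.0833).

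C4a and Cfb had raw counts of 4 to 16 and 17 to 52 per library. What kept them from being called was not tested.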
